A study of Mus musculus with 16 samples.

Results

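FAN and vehicle treatment were compared in the kidneys of mice that had free access to a high-fat diet. The comparison takes 8 of the 16 libraries of the series, 4 from FAN ad libitum and 4 from vehicle ad libitum mice, and covers all 52338 genes of the count table. All mice are labelled C57BL6, all received the high-fat diet, and the kidneys were taken on day 15 after treatment. The other 8 libraries come from FAN and vehicle mice fed the same diet in a time-restricted schedule, and they are used here only for the shared estimate of the spread and for 1 comparison near the end. The labels do not spell out FAN or give its dose, the vehicle, or the sex and age of the mice. The names of the count columns carry the word folic, and a high dose of folic acid is a standard way to injure mouse kidney tubules. FAN columns match their group but not single sample titles, so FAN libraries are called by their column numbers 6, 7, 10 and 12, and vehicle libraries by 1, 2, 3 and 4. Each library was made from frozen powder of kidney tissue, so it mixes cortex and medulla and all their cell types. A lower value can therefore reflect fewer cells of a type or less RNA in each cell, and these cannot be told apart.

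The proximal tubule, which makes up most of the kidney cortex, recovers glucose, amino acids, phosphate and filtered protein, secretes drugs and organic acids, and burns fatty acids in its many mitochondria and peroxisomes. After a toxic insult its surviving cells lose much of this equipment, spread, divide and switch on an epithelial injury program with SOX9, keratins and secreted factors. Where repair is incomplete, injured tubules keep signalling to immune cells and fibroblasts, and matrix is laid down between the tubules.

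In FAN kidneys the transcripts of proximal tubule transport, drug handling, peroxisomes and amino acid breakdown were lower nearly list by list. Transcripts of injury transcription factors, acute phase proteins, coagulation factors, matrix proteases, cytokines and innate immune receptors were higher. Some water and acid transport genes of distal segments were lower and several calcium and magnesium transport genes higher. For many lists the count that passed depended on how libraries were scaled. Among them were distal segments, endothelial markers, peroxisomes, the lysosome, the proteasome and cytosolic and mitochondrial ribosomal proteins. Both counts are given for these.

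Total counts ran from 19266923 to 33035197 in the FAN libraries and from 18788303 to 33976660 in the vehicle libraries. With so many counts, a gene with no count in a library could still have measured up to 0.0883 to 0.16 CPM (counts scaled to the raw total of the library), a limit for counting error only. Mitochondrially encoded genes took 10.3% ± 3.83 of counts (SD, n = 4) after FAN and 20.3% ± 2.32 after vehicle (exact two-sided permutation p = 0.0286, the smallest that 4 against 4 allows). Their share was 7.29% and 6.94% in FAN 6 and 7, and 14.8% and 12.1% in FAN 10 and 12. FAN libraries 6 and 7 and vehicle libraries 1 and 2 carry the lowest S numbers in their column names, taken here as sheet positions, FAN 10 and 12 the latest, and vehicle 3 and 4 lie between. The later positions hold libraries of 1 treatment each, so only the earliest ones give a value within 1 set of positions. Scaling matters here, since the trimmed mean (TMM) factors were 1.32 to 1.53 in FAN and 0.844 to 0.922 in vehicle libraries. The median log2 change of all genes tested was 0.06 with TMM and 0.76 with library size scaling, and changes below are on the TMM scale and stand relative to that shift.

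Of 17731 genes with enough counts to test, 5691 (32.1%) were higher and 5079 (28.6%) lower in FAN at an adjusted p under 0.05 by edgeR's quasi-likelihood test. These shares are the background for each count of list members below. With library size scaling 10823 were higher and 2070 lower. Within the earliest sheet positions 9442 genes were called. A log2 change of at least 3 was reached by 798 of the called genes upward (4.5%) and 204 downward (1.15%), and a change of at least 2 was reached by 1738 of the called genes upward (9.8%) and 762 downward (4.3%). At a log2 change of at least 4 the counts were 336 (1.89%) and 50 (0.282%), so the extreme changes were mostly rises. The groups did not overlap for 54.9% of genes tested, with FAN above vehicle for 29% and below it for 25.9%.

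The make-up of the kidney's RNA changed with these calls. In vehicle libraries 251 ± 42.7 genes (SD, n = 4) held 50% of all counts, and in FAN libraries 898 ± 217 genes did (exact two-sided permutation p = 0.0286). This took 1010 and 1139 genes in FAN 6 and 7, and 660 and 782 in FAN 10 and 12. The 100 most counted genes of a library took 41.5% ± 1.94 of counts in vehicle and 25.5% ± 4.19 in FAN. The largest single loss of share was in Kap, the kidney androgen-regulated protein of the proximal tubule (ENSMUSG00000032758, chromosome 6, 133849851 to 133853762), from 4.61% ± 0.737 to 0.981% ± 0.347 of counts. Kap measured 40205, 54324, 53059 and 60663 CPM in the vehicle libraries and 5162, 4076, 9409 and 9053 CPM in the FAN libraries. Every FAN library lay far below every vehicle library. The largest gain was in Spp1, which encodes the secreted phosphoprotein osteopontin, from 0.0571% ± 0.0103 to 1.86% ± 0.405 of counts. Another loss of share was in Gpx3, the plasma glutathione peroxidase made by the proximal tubule (2.16% ± 0.247 to 0.908% ± 0.42). The next gain was in the translation elongation factor gene Eef1a1 (0.287% ± 0.0333 to 0.483% ± 0.0506). On the TMM scale Eef1a1 measured a log2 change of 0.07 and did not pass (adjusted p = 0.74 by edgeR). Next came the mineral-binding matrix protein gene Mgp, the macrophage lysozyme gene Lyz2 and the lipid carrier gene Apoe, to 0.168%, 0.156% and 0.162% of counts.

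**Figure D1:**
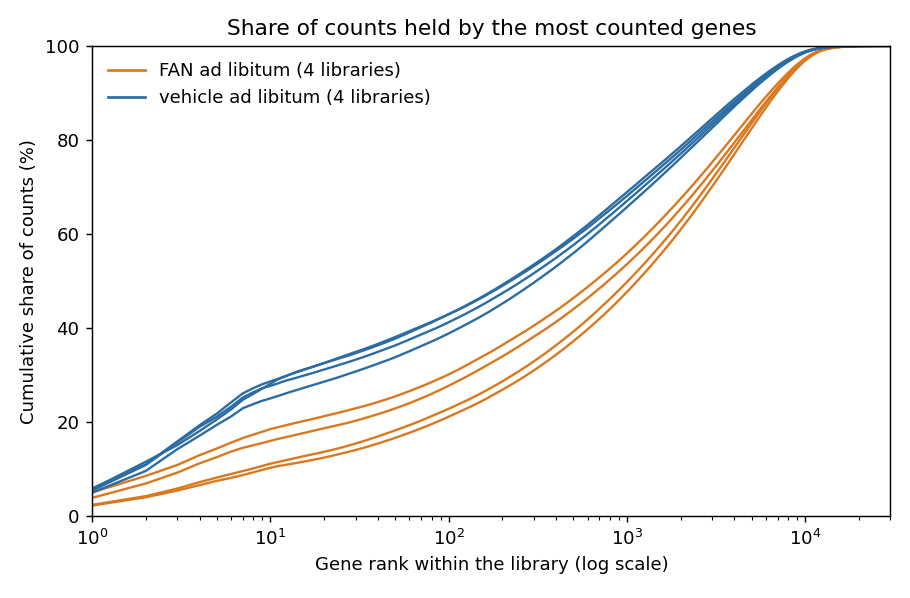
Cumulative share of a library's counts (y axis, percent) held by its most counted genes (x axis, gene rank on a log scale) in the 4 FAN (orange) and 4 vehicle (blue) ad libitum libraries, 1 line a library. The FAN lines run lower: the 100 most counted genes held 21.2% to 30.2% of counts in FAN and 38.9% to 43% in vehicle libraries.

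Most transport genes of the proximal tubule fell, both in the convoluted S1 and S2 segments and in the straight S3 segment. Among 21 S1 and S2 genes, 16 were lower, 1 was higher and 4 did not pass (median log2 change -1.65). In the straight segment 12 of 14 genes were lower and the other 2 did not pass (median -1.83). The largest straight-segment change was in Acy3, an aminoacylase that removes acetyl groups from mercapturic acids (ENSMUSG00000024866, chromosome 19, 3986570 to 3990007). Acy3 measured 2972, 4011, 3959 and 4355 CPM in the vehicle libraries and 710.2, 437, 157 and 183 CPM in the FAN libraries. Its log2 change was -3.36 ± 0.38 (adjusted p = 5.69e-07), and FAN 10 and 12 lay lowest. The cystine and aspartate transporter gene Slc7a13 fell from 1109 ± 91.8 to 146 ± 89.9 CPM, and the bile acid and oxysterol hydroxylase gene Cyp7b1 from 374 ± 112 to 43.4 ± 12.4 CPM. Slc22a19 (-3.28) and the urate and nicotinate transporter gene Slc22a13 (-2.99) fell as well.

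Members of the S1 and S2 list did not move alike. The dicarboxylate transporter gene Slc13a3 (-2.34 ± 0.25), the urate and phosphate transporter gene Slc17a3 (-2.25), the endocytic receptor gene Cubn (-2.24) and the scaffold gene Pdzk1 (-1.95) fell. The phosphate transporter gene Slc34a3 (-2.35 ± 0.53) changed most in the list, by a small margin. Slc5a2, which encodes the main glucose transporter SGLT2, measured a log2 change of -0.89 ± 0.46 and did not pass (adjusted p = 0.108). The lactate transporter gene Slc5a12 (0.09, adjusted p = 0.9) and the bicarbonate transporter gene Slc4a4 (-0.23, adjusted p = 0.449) did not pass either. The sulfate transporter gene Slc13a1 was the 1 member that rose. Slc13a1 measured 264, 209.8, 206 and 272 CPM in the vehicle libraries and 435, 322, 566 and 445 CPM in the FAN libraries. Its log2 change was 0.89 ± 0.18 (adjusted p = 0.000257). The basolateral sulfate exchanger gene Slc26a1 fell (-1.46).

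Among 19 genes of tubular reabsorption 14 were lower, none was higher and 5 did not pass (median -0.98; 1 higher and 8 lower with library size scaling). Slc6a19, the neutral amino acid transporter of the brush border, fell from 114 ± 67.7 to 22.2 ± 9.72 CPM, beside its partner gene Cltrn, or collectrin (-2.17), the proline transporter gene Slc6a20b (-2.46) and the GABA and betaine transporter gene Slc6a13 (-2.47). The basolateral genes Slc7a8 (-0.17, adjusted p = 0.736) and Slc7a7 (-0.58, adjusted p = 0.0695) did not pass. Among 16 transporters that serve uptake in many cell types, 11 rose, 1 fell and 4 did not pass (median 0.98). On library size scaling 14 of them were higher and 0 lower. The cationic amino acid transporter gene Slc7a2 was among those that rose (ENSMUSG00000031596, chromosome 8, 40862396 to 40922308). Slc7a2 measured 2.45, 2.66, 2.16 and 1.45 CPM in the vehicle libraries and 53.3, 62.6, 37.2 and 57.9 CPM in the FAN libraries. The groups were far apart, with a log2 change of 4.57 ± 0.31. Slc7a11, the cystine importer that feeds glutathione synthesis (4.63), the large neutral amino acid transporter gene Slc7a5 (2.21) and the glutamine transporter genes Slc38a1 (2.06) and Slc38a2 (1.31) rose too, and Slc1a4 fell (-0.85). The vehicle mean of Slc7a11, 0.071 CPM, lies below the counting floor.

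Most genes of drug and metabolite handling fell. Of 23 transporters of organic anions and cations, 20 fell and 3 did not pass (median -2.35). Slc22a7, the organic anion transporter OAT2, changed most (ENSMUSG00000067144, chromosome 17, 46432183 to 46438457). Slc22a7 measured 67.8, 249.8, 213 and 242 CPM in the vehicle libraries and 11.2, 10.1, 18.6 and 8.82 CPM in the FAN libraries. Vehicle 1 lay below the other vehicle libraries and still above every FAN library. The organic anion transporter genes Slc22a6 and Slc22a8 (OAT1 and OAT3) fell by 2.35 and 2.77, the cation transporter gene Slc22a2 (OCT2) by 2.68, the urate transporter gene Slc22a12 (URAT1) by 2.35 and the proton-coupled exporter gene Slc47a1 (MATE1) by 2.04 on the log2 scale. Among exporters of the brush border, Abcc2 (-1.41) and Abcg2 (-1.06) fell and Abcc4 measured 0.58 (adjusted p = 0.144). Of 25 cytochromes P450 tested out of 28 listed, 17 fell, 3 rose and 5 did not pass (median -1.75; 7 higher and 16 lower with library size scaling). Cyp4b1 fell from 3323 ± 564 to 525 ± 238 CPM, Cyp2e1 from 1840.1 ± 295 to 452 ± 263 CPM and the arachidonate epoxygenase gene Cyp2j5 from 2194 ± 189 to 571 ± 114 CPM. Mouse P450 genes lie in clusters of near copies that can share reads, so single Cyp2a, Cyp2d and Cyp4a values are uncertain. The 3 that rose were Cyp1b1 (2.36), Cyp4v3 (1.69) and Cyp27b1 (1.28), the last encoding the enzyme that activates vitamin D and losing its call without FAN 6 (1.05).

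Most brush border and peroxisomal genes fell. Of 24 brush border genes 18 were lower, 1 higher and 5 did not pass (median -1.14; 2 higher and 10 lower with library size scaling), with the aminoacylase gene Acy1 (-3.59), the meprin genes Mep1b (-3.43) and Mep1a (-2.25) and the trehalase gene Treh (-1.99) lower. The peptidase genes Mme (-0.27, adjusted p = 0.318), Enpep (-0.38, adjusted p = 0.219) and Dpp4 (-0.03, adjusted p = 0.87) did not pass. Of 33 peroxisomal genes 32 fell and 1 missed the threshold (median -1.59). On library size scaling 22 of them were lower and 0 higher (median -0.89). The branched-chain acyl-CoA oxidase gene Acox2 fell from 161 ± 31 to 15.1 ± 3.4 CPM, the racemase gene Amacr from 356 ± 61 to 43 ± 13 CPM and catalase Cat from 1439.6 ± 169 to 285 ± 72.9 CPM. The import and assembly factor genes Pex5 (-0.76), Pex13 (-0.65) and Pex14 (-1.37) fell as well, and Pex13 turned sign with library size scaling.

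Genes of amino acid breakdown fell nearly throughout. Of 38 tested out of 41 listed, 36 fell, none rose and 2 did not pass (median -1.97). In the tyrosine pathway the transcripts that fell included Hpd (-5.08), Hgd (-2.72), Gstz1 (-2.29) and Fah (-2.78). Aadat encodes the transaminase of lysine and kynurenine breakdown (ENSMUSG00000057228, chromosome 8, 60505932 to 60545677). Aadat measured 394, 688, 668 and 636 CPM in the vehicle libraries and 49.1, 34.5, 84.1 and 36.3 CPM in the FAN libraries. Its log2 change was -3.55 ± 0.26 (adjusted p = 3.59e-09). Miox, the inositol oxygenase made almost only by the proximal tubule, fell from 2102 ± 262 to 239 ± 88.8 CPM, and Ass1, an enzyme of arginine synthesis, from 1164 ± 243 to 244 ± 126 CPM. Gatm, the first enzyme of creatine synthesis, fell by 1.31, a call lost without FAN 12 (-1.09) or vehicle 1 (-0.86). The glycine decarboxylase gene Gldc (0.40, adjusted p = 0.402) and Bckdha (-0.61, adjusted p = 0.0752) did not pass. In the route from tryptophan to NAD 12 of 17 genes were lower, 3 were higher and 2 did not pass (median -1.26). Haao fell from 386 ± 31.8 to 36.9 ± 9.35 CPM and Qprt, the enzyme that commits quinolinate to NAD, from 74.8 ± 8.57 to 20.3 ± 4.85 CPM. Nampt, the salvage enzyme, fell by 0.66. The members that rose were Nnmt, which methylates and so removes nicotinamide (2.55), Aox1 (1.51) and Tdo2 (1.73), the latter from a vehicle mean of 0.131 CPM near the counting floor.

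Regulators of proximal tubule identity were mixed. Of 22 genes tested 10 were lower, none was higher and 12 did not pass, with a median of -0.39 that became 0.31 with library size scaling, where 5 were higher and 4 lower. Hnf4a, the nuclear receptor that drives proximal tubule maturation (ENSMUSG00000017950, chromosome 2, 163506808 to 163572910), changed most. Hnf4a measured 682, 694, 635 and 774 CPM in the vehicle libraries and 220.4, 195, 172 and 121 CPM in the FAN libraries. No FAN library reached the lowest vehicle value, and the log2 change was -1.98 ± 0.16 (adjusted p = 9.46e-09). The mitochondrial regulator genes Esrra (-1.27) and Tfam (-0.59), the vitamin D receptor gene Vdr (-1.12) and the bile acid receptor gene Nr1h4 (-1.001) also fell. Ppara (0.02 ± 0.34, adjusted p = 0.959) and Ppargc1a (-0.30 ± 0.22, adjusted p = 0.248) did not pass, and the 95% interval of the Ppara change ran from -0.69 to 0.73.

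Transcription factors of injury and development rose. Of 35 tested 28 rose, 1 fell and 6 did not pass (median 1.97), against 30 higher and 0 lower with library size scaling. Sox9, a regulator of tubule repair, showed the largest rise (ENSMUSG00000000567, chromosome 11, 112782224 to 112787760). Sox9 measured 0.706, 0.14, 0.719 and 0.252 CPM in the vehicle libraries and 28.8, 21.7, 19.7 and 18.4 CPM in the FAN libraries. The groups did not overlap, and the log2 change was 5.57 ± 0.47 (adjusted p = 2.12e-08). Runx1 rose from 1.57 ± 0.279 to 31.2 ± 7.69 CPM, Creb5 from 0.652 ± 0.128 to 15.4 ± 2.97 CPM, Sox4 from 10.6 ± 0.937 to 81 ± 8.14 CPM and Klf6 from 27.1 ± 2.95 to 226 ± 29.4 CPM. The NF-kappaB subunit genes Relb (2.71), Nfkb2 (2.04) and Nfkb1 (1.97) of this list rose, as did Bcl3 (2.52) and Stat3 (2.07). Of the genes linked to mesenchymal change, Snai1 (2.05), Snai2 (1.95), Twist1 (2.84) and Zeb2 (1.84) rose. The kidney lineage factor gene Pax8 fell (-0.49), and Pax2 (0.03, adjusted p = 0.919) did not pass.

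**Figure D2:**
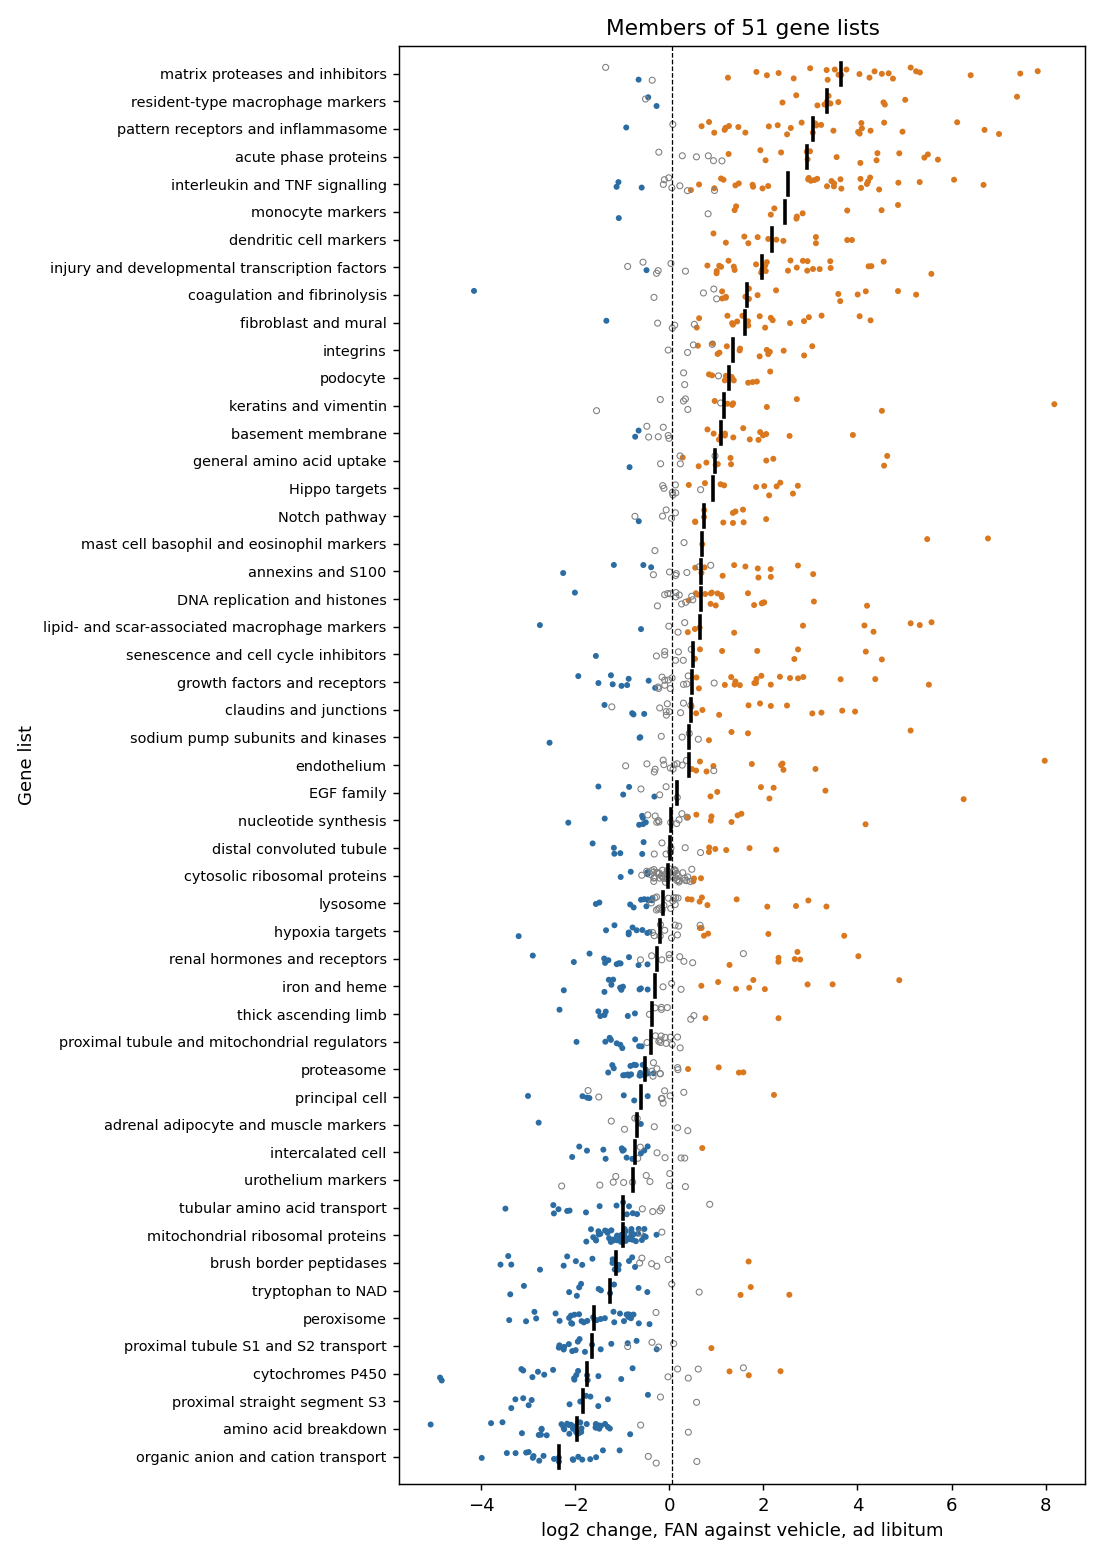
Log2 change of FAN against vehicle under ad libitum feeding (x axis) for every tested member of 51 gene lists (y axis), 1 point a gene, filled where the adjusted p was under 0.05, with a black bar at each list's median and a dashed line at the median of all genes tested (0.06). Medians run from -2.35 in organic anion and cation transport to 3.66 in matrix proteases and inhibitors.

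Upstream sequence was set beside these rises and falls. The 250 bases before the RefSeq start site (GRCm38.p6) were available for 12586 tested genes and searched on both strands for 15 motifs. The AP-1 motif TGANTCA was found in 6.23% of them, in 10.4% of the 1223 genes that rose at least 4-fold and in 18.3% of the 230 that rose at least 16-fold. A 10-letter NF-kappaB motif was found in 0.493% of all, in 1.31% of those that rose at least 4-fold and in 2.17% of those that rose at least 16-fold. Among the 482 genes that fell at least 4-fold, 9.13% held the AP-1 and 1.24% the NF-kappaB motif. The full HNF1 palindrome was found upstream of 1 gene of all and of none of these, and its first 10 letters in 1.66% of these, 0.491% of genes that rose at least 4-fold and 0.389% of all. The HNF4 motif CAAAGTCCA was found in 0.83% of those that fell, 0.981% of those that rose and 0.477% of all. The STAT motif TTCCNGGAA was found in 1.31% of genes that rose at least 4-fold and 1.25% of all, and the E2F motif TTTCCCGC in 1.47% and 1.74%. For the other 8 motifs the shares in genes that rose at least 4-fold and in all were 6.54% and 3.01% for PU.1 (GAGGAAGT), 6.21% and 3.37% for the interferon-response element, 5.31% and 3.24% for TATAAAA and 1.31% and 0.985% for the cell cycle motif TTTGAATT. They were 0.654% and 0.358% for the PPAR element, 7.85% and 10.6% for the NFY motif CCAATCA, 5.97% and 9.33% for the E-box CACGTG, and 1.64% and 2.75% for the cyclic AMP element TGACGTCA. In genes that fell at least 4-fold the shares were 2.28% (PU.1), 2.07% (interferon-response element), 6.85% (TATAAAA) and 1.45% (cell cycle motif). For the PPAR element, NFY, the E-box and the cyclic AMP element they were 0.83%, 9.54%, 8.92% and 1.24%. STAT and E2F motifs were found in 1.24% and 0.83% of genes that fell. The following stretches reach up to 120 bases before a RefSeq start site on the plus strand and are clear of every GENCODE M21 exon. Each is shown for 1 match, in capitals, to the motif named for it below, near a gene that rose (Mmp7, Cxcl2) or fell (Cltrn). Other motifs of the search are left unmarked. The Mmp7 stretch also holds the PU.1 motif (as acttcctc) and the cell cycle motif (as aattcaaa), both on the other strand.
Mmp7 upstream, chr9:7691970-7692089, plus strand: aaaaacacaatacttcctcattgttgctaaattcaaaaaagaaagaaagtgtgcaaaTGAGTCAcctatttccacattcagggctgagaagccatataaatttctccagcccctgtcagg
Cxcl2 upstream, chr5:90903779-90903870, plus strand: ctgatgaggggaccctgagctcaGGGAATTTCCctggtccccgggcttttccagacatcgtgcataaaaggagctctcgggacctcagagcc
Cltrn upstream, chrX:164090067-164090153, plus strand: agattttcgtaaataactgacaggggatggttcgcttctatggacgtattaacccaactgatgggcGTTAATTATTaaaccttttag
The capitals mark AP-1 in the stretch of the protease gene Mmp7 (log2 change 7.83), NF-kappaB in that of the neutrophil chemokine gene Cxcl2 (6.13), and the HNF1 letters in that of Cltrn (-2.17). A match describes letters and shows no binding.

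Transcripts of keratin, claudin and other structural genes changed as well. Of 14 keratin and other intermediate filament genes 8 rose and 6 did not pass (median 1.16). Krt20, a keratin of injured tubules (ENSMUSG00000035775, chromosome 11, 99428403 to 99438150), was low in vehicle. Krt20 measured 1.14, 0.421, 5.61 and 0.126 CPM in the vehicle libraries and 56.9, 44.9, 29.4 and 34.6 CPM in the FAN libraries. FAN 6 and 7 lay above FAN 10 and 12, and all lay above vehicle, where library 3 was highest. Vimentin Vim rose from 39.6 ± 5.62 to 167 ± 16.2 CPM, Krt18 by 1.34 and Krt8 by 0.96 on the log2 scale, whereas Krt7, a collecting duct keratin, measured 0.30 (adjusted p = 0.0677). Krt17 measured a mean of 4.39 CPM in FAN and lay below the counting floor in vehicle. Among 25 claudin and junction genes 12 rose, 4 fell and 9 did not pass (median 0.45; 19 higher and 1 lower with library size scaling). The proximal claudin gene Cldn2 (-0.76), Cldn10 (-1.38) and the kidney cadherin gene Cdh16 (-0.79) fell. The claudin genes Cldn1 (3.04), Cldn4 (2.16), Cldn7 (1.93) and Cldn3 (1.68) rose, and the mesenchymal cadherin gene Cdh11 from 4.12 ± 1.76 to 64.1 ± 15.3 CPM. E-cadherin Cdh1 measured 0.30 (adjusted p = 0.0665). Of 23 annexins and S100 genes 12 rose and 4 fell (17 higher and 1 lower with library size scaling), led by Anxa3 (3.06), Anxa1 (2.73) and Anxa2 (1.62), and the calcium-binding S100g of the distal tubule fell (-1.18).

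Growth factor transcripts moved both ways on the TMM scale. In the EGF family 7 of 15 genes rose and 4 fell (10 higher and 1 lower with library size scaling). Egf itself, made by the thick ascending limb, fell from 442 ± 68.5 to 155 ± 85.8 CPM. Areg, which encodes amphiregulin, was near absent in vehicle. Areg measured 0.0672, 0, 0.0479 and 0 CPM in the vehicle libraries and 4.42, 2.01, 1.22 and 3.3 CPM in the FAN libraries. All vehicle values lie under the counting floor, so the fold has no firm size, and the groups did not overlap. Hbegf (1.02), Nrg1 (1.95) and the receptor gene Erbb4 (2.13) rose, and Egfr fell (-0.32), a call lost without FAN 10 or vehicle 3 (-0.25 without FAN 10). Among 40 further growth factor and receptor genes 19 rose and 9 fell (median 0.49), against 31 higher and 3 lower with library size scaling (median 1.20). Inhba, an activin subunit gene, rose from 0.339 ± 0.116 to 15.7 ± 1.58 CPM, Inhbb from 1.16 ± 0.281 to 24.5 ± 4.28 CPM and Pdgfb from 9.9 ± 2.25 to 71.6 ± 16.6 CPM. Those that fell included Fgf1 from 400.4 ± 53.9 to 104 ± 9.99 CPM, Bmp7 (-1.51) and Vegfa (-0.87), the vascular growth factor. Csf1 (2.35) and Il34 (1.40), the ligands of the macrophage receptor CSF1R, both rose, and Csf1r rose by 0.58, a call lost without FAN 6, FAN 7, vehicle 1 or vehicle 3 (0.42 without FAN 7). Of 18 Hippo pathway genes 11 rose and none fell (18 higher and 0 lower with library size scaling), with Ccn2 from 46.9 ± 13.9 to 204 ± 44.3 CPM and Ankrd1 (2.73), while the coactivator genes Yap1 (0.13, adjusted p = 0.274) and Wwtr1 (0.07, adjusted p = 0.586) did not pass. Of 17 Notch genes 11 rose and 1 fell (14 higher and 0 lower with library size scaling). Those that rose included the receptor gene Notch1 (2.06) and the ligand gene Jag1 (1.40).

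Acute phase and coagulation genes, most of them known as liver products, rose in the kidney. Of 21 acute phase genes tested out of 24 listed, 15 rose and 6 did not pass (median 2.92). Fgg encodes a chain of fibrinogen, the clot protein (ENSMUSG00000033860, chromosome 3, 83007724 to 83015049). Fgg measured 5.98, 3.82, 6.81 and 5.87 CPM in the vehicle libraries and 92.4, 90, 119.6 and 71.9 CPM in the FAN libraries. All FAN libraries lay far above vehicle, with a log2 change of 4.06 ± 0.33. Fgb rose from 0.304 ± 0.358 to 15.3 ± 6.35 CPM, and Fga from 19.8 ± 6.36 to 102.9 ± 38.6 CPM. Cp, the copper and iron oxidase ceruloplasmin, rose from 82.7 ± 12.1 to 635 ± 169 CPM, and the protease inhibitor gene Serpina3n from 1.18 ± 0.572 to 25.2 ± 11.8 CPM. Of 20 coagulation and fibrinolysis genes 15 rose and 1 fell. The protease inhibitor gene Serpine2 rose from 18.1 ± 4.86 to 226 ± 40.8 CPM. F10 (5.25) and F7 (4.004), both known as hepatic clotting factors, rose to means of 3.79 and 1.64 CPM from means near the counting floor. The urokinase gene Plau (-0.33, adjusted p = 0.108) and Plat (1.004, adjusted p = 0.0588) did not pass. Albumin transcripts, another liver product, fell (-2.78, from a vehicle mean of 10.2 CPM).

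Most integrin, basement membrane and matrix protease genes rose. Of 18 integrin genes 14 rose and none fell (median 1.36), with Itgb3 (3.04), Itga6 (2.14), Itga5 (2.10) and Itgav from 75.4 ± 17 to 212 ± 12.9 CPM. Of 23 basement membrane genes 15 rose and 2 fell (17 higher and 0 lower with library size scaling). The widely made collagen IV chains Col4a1 (2.06) and Col4a2 (1.71) rose, whereas the glomerular chain gene Col4a3 fell (-0.73) and Col4a4 (-0.44, adjusted p = 0.0562) and Col4a5 (-0.03, adjusted p = 0.946) did not pass. Col15a1 rose from 10.3 ± 4.98 to 155 ± 88.7 CPM and the linker gene Nid1 from 19.6 ± 4.97 to 116 ± 22.3 CPM. Of 27 matrix proteases and inhibitors 24 rose and 1 fell (median 3.66), against 24 higher and 0 lower with library size scaling. Mmp14, a membrane-bound collagenase, rose from 3.66 ± 1.03 to 100.1 ± 27.5 CPM, Mmp2 from 2.24 ± 1.02 to 57.9 ± 29.8 CPM, Mmp12 from 1.75 ± 0.583 to 62.6 ± 26.6 CPM and the inhibitor gene Timp1 from 1.001 ± 0.245 to 85.3 ± 21.6 CPM. The inhibitor gene Timp3 measured -0.37 (adjusted p = 0.36).

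Most fibroblast genes rose. Of 24 fibroblast and mural genes 19 rose, 1 fell and 4 did not pass (median 1.61). On library size scaling 22 were higher and 0 lower. Tnc, which encodes the matrix glycoprotein tenascin-C, rose most. Tnc measured 10.6, 18.9, 11.4 and 7.13 CPM in the vehicle libraries and 278, 282, 120.5 and 258 CPM in the FAN libraries. FAN 10 lay lowest within its group, still far above vehicle. Fap (3.24), Dpt (2.97), Postn (2.86) and Cd248 (2.04) rose. The contractile smooth muscle gene Myh11 fell (-1.34), and Acta2 (0.53, adjusted p = 0.155), Cnn1 (-0.25, adjusted p = 0.642) and the pericyte gene Rgs5 (0.06, adjusted p = 0.787) did not pass.

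Markers of macrophages, monocytes and dendritic cells rose, and these 3 kinds cannot be counted apart in whole tissue. Of 15 resident-type macrophage genes 12 rose and 2 fell (median 3.35; 13 higher and 0 lower with library size scaling), with the largest change in Fcrls (7.39). Of 12 monocyte genes 10 rose and 1 fell (11 higher and 0 lower with library size scaling). Ccr2, the receptor that brings monocytes from blood (ENSMUSG00000049103, chromosome 9, 124101950 to 124113557), was among those that rose, as was Ly6c2 (1.42). Ccr2 measured 6.42, 5.68, 3.26 and 4.79 CPM in the vehicle libraries and 78.9, 85.2, 141 and 159 CPM in the FAN libraries. Its log2 change was 4.51 ± 0.26. Ace, also a brush border enzyme, was the monocyte-list gene that fell (-1.08). Among 15 genes of lipid- and scar-associated macrophages 10 rose and 2 fell, with Arg1 (5.58), Gpnmb (5.32) and Trem2 (4.15) higher. Lpl, which the tubule also makes, fell from 1189 ± 572 to 176 ± 55.2 CPM. All 12 dendritic cell genes rose (median 2.19), among them the conventional type markers Xcr1 (2.42) and Clec9a (1.59) and the migration receptor gene Ccr7 (3.12). Only 5 of 16 mast cell, basophil and eosinophil genes were counted deeply enough to test, of which 3 rose. The mast cell protease genes of the list were not among those tested.

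Most innate receptor and cytokine genes rose. Of 31 pattern receptor and inflammasome genes 29 rose, 1 fell and 1 did not pass (median 3.05). Library size scaling gave 30 higher and 0 lower. Tlr8, an endosomal RNA sensor, was near the counting floor in vehicle (ENSMUSG00000040522, chromosome X, 167242696 to 167264329). Tlr8 measured 0.269, 0.0351, 0.144 and 0.0631 CPM in the vehicle libraries and 9.53, 11.6, 11.1 and 6.68 CPM in the FAN libraries. The C-type lectin genes Clec4d (7.01) and Clec7a (4.57) and the inflammasome genes Nlrp3 (4.05), Aim2 (3.05) and Casp1 (2.58) rose. Nlrc4 fell (-0.92). Of 42 interleukin and TNF genes tested 32 rose and 3 fell (median 2.53). Within the IL-6 family, Lif (6.68), Il6 (6.05), Osm (4.20), Il11 (3.64) and Clcf1 (3.50) rose with the receptor gene Osmr, from 9.58 ± 1.61 to 121 ± 11.7 CPM. Il6 itself stayed near 1 CPM in FAN. Il6 measured 0, 0, 0.0479 and 0 CPM in the vehicle libraries and 0.796, 0.944, 1.14 and 1.19 CPM in the FAN libraries. Fitted changes of genes at or near 0 in vehicle, such as Il6, Areg and Krt17, depend on the small count added in the fit and are no firm sizes. The IL-1 antagonist gene Il1rn (5.32) rose beside Il1b (3.50), and Il33 rose from 5.14 ± 1.02 to 53 ± 8.2 CPM. Il18 (-0.01, adjusted p = 0.967) and Fas (0.05, adjusted p = 0.733) did not pass.

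**Figure D3:**
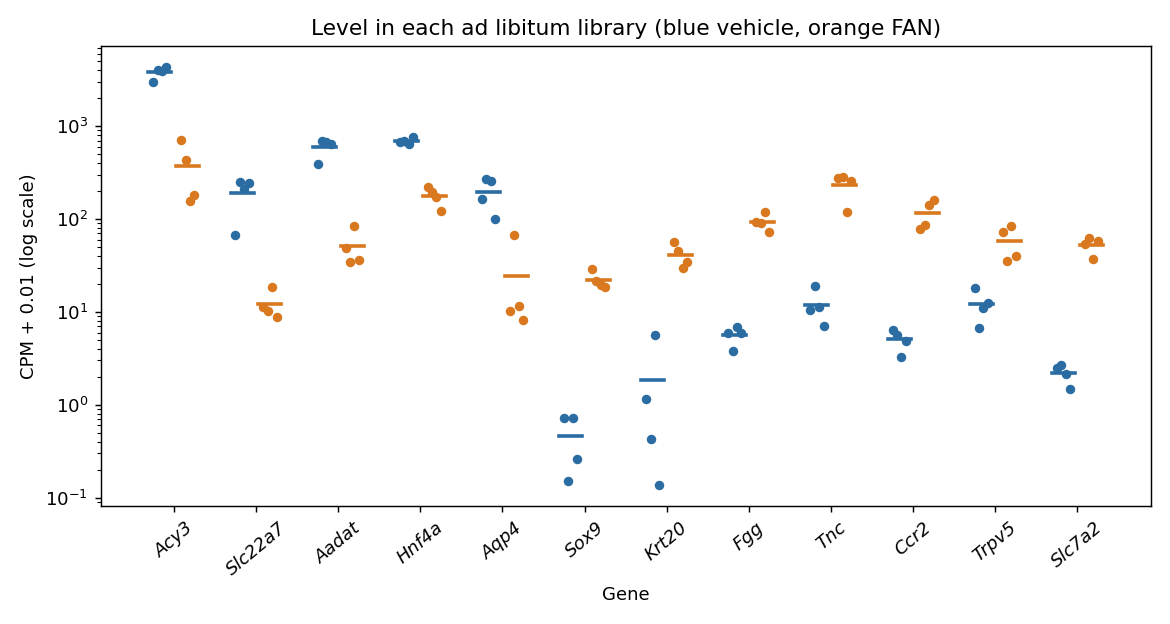
TMM-scaled CPM (y axis, log scale; 0.01 CPM was added to every value to draw values of 0) of 12 genes in each of the 4 vehicle (blue) and 4 FAN (orange) ad libitum libraries, 1 point a library, with a bar at each group's mean. Acy3, Slc22a7, Aadat, Hnf4a and Aqp4 are lower and Sox9, Krt20, Fgg, Tnc, Ccr2, Trpv5 and Slc7a2 higher in every FAN library than in any vehicle library.

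Basic cell machinery moved in parts. Of 55 cytosolic ribosomal protein genes tested, 46 did not pass, 3 rose and 6 fell, and the median of -0.04 became 0.65 with library size scaling and -0.62 in the earliest sheet positions. The counts were 35 higher and 0 lower with library size scaling. Mitochondrial ribosomal proteins fell in 46 of 48 genes (median -0.99, -0.29 with library size scaling, where 25 were lower and 2 higher), with Mrps21 from 207 ± 25.5 to 60.7 ± 7.81 CPM. In the proteasome 19 of 31 genes fell and 4 rose, with a median of -0.53 that became 0.16 with library size scaling, where 12 were higher and 3 lower. The constitutive catalytic subunit genes Psmb5 (-1.30) and Psmb6 (-1.18) fell and the interferon-inducible Psmb8 (1.48), Psmb9 (1.57) and Psmb10 (1.05) rose. In the lysosome 10 of 36 genes rose and 11 fell (median -0.14, 0.56 with library size scaling, where 26 were higher and 2 lower). Ctsc (3.34), Cd68 (2.96) and Hexa (2.08) rose, and Glb1 (-1.56) and Neu1 (-1.49) fell.

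Iron and hypoxia genes moved both ways, and most replication genes rose. Of 24 iron and heme genes 9 rose and 12 fell, with a median of -0.3 that became 0.4 with library size scaling, where 13 were higher and 6 lower. The ferritin heavy chain gene Fth1 fell from 4066 ± 472 to 1774 ± 269.5 CPM, and the iron exporter gene Slc40a1 rose (1.42). Hmox1, the heme oxygenase of acute injury, measured -0.14 (adjusted p = 0.628). Of 26 hypoxia-responsive genes 6 rose and 10 fell (median -0.19, 0.5 with library size scaling, where 13 were higher and 2 lower), with hexokinase Hk2 from 1.68 ± 1.28 to 21.7 ± 4.7 CPM and Car9 from 13.7 ± 2.49 to 1.47 ± 0.379 CPM. Of 30 replication genes 18 rose and 1 fell (median 0.68; 28 higher and 1 lower with library size scaling). Top2a rose from 1.11 ± 0.389 to 21.2 ± 2.6 CPM and Uhrf1 from 1.73 ± 0.768 to 14.9 ± 0.846 CPM. In the nucleotide synthesis list 8 of 25 genes rose and 7 fell (16 higher and 2 lower with library size scaling), with the folate-linked genes Shmt2 (-2.15) and Mthfd1 (-1.38) lower. Among cell cycle inhibitors Cdkn1a rose (2.66), Cdkn2b measured 0.47 (adjusted p = 0.461), and Cdkn2a had too few counts to test.

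How distal segments divided depended on the scaling. Of 19 distal convoluted tubule genes 6 rose, 6 fell and 7 did not pass (median 0.02), against 12 higher and 1 lower with library size scaling (median 0.72). The apical calcium channel gene Trpv5 (ENSMUSG00000036899, chromosome 6, 41652173 to 41680769) changed most among those that rose. Trpv5 measured 18, 6.62, 11.1 and 12.4 CPM in the vehicle libraries and 73.3, 35.5, 83.2 and 40.4 CPM in the FAN libraries. All FAN libraries lay above vehicle, with a log2 change of 2.27 ± 0.36. In the earliest sheet positions alone, 2 against 2, the Trpv5 change was 2.10 (adjusted p = 0.11). The calcium exchanger gene Slc8a1 rose from 47.2 ± 18.1 to 154 ± 56.7 CPM, the calcium pump gene Atp2b1 from 39.7 ± 5.91 to 91.8 ± 9.46 CPM and the magnesium channel gene Trpm6 from 19.1 ± 4.37 to 37.6 ± 6.07 CPM. The salt transporter gene Slc12a3 (0.34, adjusted p = 0.216) and the calcium buffer gene Calb1 (0.66, adjusted p = 0.103) did not pass, and Pvalb fell (-1.63). In the thick ascending limb 7 of 16 genes fell and 2 rose (median -0.36, 0.34 with library size scaling, where 4 were lower and 6 higher), with the channel subunit gene Bsnd (-1.35) lower and the calcium receptor gene Casr (0.77) higher. Slc12a1, the salt cotransporter of the segment, measured -0.42 (adjusted p = 0.352).

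In the collecting duct, some water channel transcripts fell. Of 16 principal cell genes 7 fell and 1 rose (median -0.61, 0.11 with library size scaling, where 3 were lower and 7 higher). Aqp4, a basolateral water channel that straight proximal tubules of mice also make, changed most (ENSMUSG00000024411, chromosome 18). Aqp4 measured 165, 269, 255 and 100.7 CPM in the vehicle libraries and 10.3, 67.9, 11.4 and 8.12 CPM in the FAN libraries. FAN 7 stood apart from the other FAN libraries. The log2 change was -3.01 ± 1.11 (adjusted p = 0.0314), and it no longer passed without FAN 6, FAN 10, FAN 12, vehicle 2 or vehicle 3 (adjusted p from 0.058 to 0.08). Aqp3 fell by 1.70. Aqp2 varied among libraries. Aqp2 measured 102.7, 207, 239.8 and 89.9 CPM in the vehicle libraries and 44.2, 130.1, 29 and 22 CPM in the FAN libraries. The groups overlapped, and its log2 change of -1.50 ± 0.64 did not pass (adjusted p = 0.0587). Without FAN 7 the Aqp2 change was -2.33 and passed (adjusted p = 0.00625). Of the sodium channel subunits Scnn1a measured -0.75 (adjusted p = 0.0408), a call lost when any of 6 libraries was left out, and Scnn1b (-0.16, adjusted p = 0.378) and Scnn1g (-0.10, adjusted p = 0.625) did not pass. In intercalated cells 13 of 20 genes fell and 1 rose (median -0.73, -0.02 with library size scaling, where 5 were lower and 4 higher), with the base exchanger gene Slc26a4 (pendrin, -1.40) and the ammonia transporter genes Rhbg (-1.92) and Rhcg (-0.97) lower. Among sodium pump genes the proximal and distal regulator gene Fxyd2 fell from 3260.3 ± 363 to 557 ± 64.4 CPM, the subunit gene Atp1b1 fell (-0.63), and Fxyd5 rose (1.67).

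Hormone genes of the kidney moved on both sides. Of 28 tested genes 7 rose and 12 fell (median -0.27, 0.43 with library size scaling, where 14 were higher and 4 lower). Klotho Kl, the FGF23 co-receptor (ENSMUSG00000058488, chromosome 5, 150952607 to 150993817), fell. Kl measured 459.8, 359.9, 449.98 and 456 CPM in the vehicle libraries and 227, 162, 184 and 87 CPM in the FAN libraries. The groups did not overlap. Renin Ren1 fell from 60.5 ± 14.7 to 23.3 ± 12.2 CPM, the parathyroid hormone receptor gene Pth1r from 473 ± 51.2 to 146 ± 34.8 CPM and the kallikrein gene Klk1 from 3333 ± 610.4 to 815 ± 206 CPM. The vasoconstrictor gene Edn1 rose from 1.27 ± 0.498 to 20.8 ± 7.56 CPM with its receptor gene Ednra (2.78), and the prostaglandin genes Ptgs2 (2.32) and Ptger4 (2.67) rose. The vitamin D degrading enzyme gene Cyp24a1 measured 1.57 (adjusted p = 0.0689), and 3.10 without vehicle 1, which passed. Epo had too few counts to test.

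Of 14 podocyte genes 11 rose and none fell (median 1.26). Nphs1 (nephrin) rose by 1.18 on the log2 scale, whereas Podxl measured 0.32 (adjusted p = 0.326). Of 24 endothelial genes 11 rose and 13 did not pass (median 0.42), against 20 higher and 0 lower with library size scaling (median 1.12). The general endothelial gene Pecam1 measured 0.16 ± 0.25 (adjusted p = 0.597) and the kidney capillary genes Emcn (-0.13, adjusted p = 0.626) and Ehd3 (0.10, adjusted p = 0.731) did not pass. The genes of this list that rose included Icam1 (2.43), Pdpn (3.11) and Sele (1.75), the last a call lost without FAN 7, FAN 10, vehicle 1 or vehicle 4 (1.43 without vehicle 1). In whole tissue these rises cannot be assigned to endothelial cells. None of 11 urothelial genes passed by edgeR, with 1 at an unadjusted p under 0.05, 1 passing by DESeq2 and 2 by limma voom. Of the adrenal, adipocyte and muscle markers 7 of 16 were not tested for lack of counts, and the summed level of the 9 tested ran from 202 to 342 CPM in vehicle and from 137 to 199.2 CPM in FAN.

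A set of 29 genes was called and had no count in any vehicle library, against 4 with no count in any FAN library. At equal depth these sets held 43 and 4 genes. Set against a floor of 3 counts a library, on the TMM scale (a mean of 0.135 CPM in vehicle), the mucin-like gene Mucl1 was at least 35.1-fold higher in FAN, at 2.43 to 8.01 CPM. The synapse gene Syndig1 was at least 24.6-fold higher, the melanocortin receptor gene Mc5r at least 23.5-fold and Dcx, a microtubule protein of migrating neurons, at least 17.2-fold. Has2, which makes hyaluronan, was at least 9.91-fold higher, and Selp, the leukocyte-binding P-selectin of activated endothelium and platelets, at least 8.66-fold. Among the largest rises with a vehicle mean above 0, Il36a, an IL-1 family cytokine, measured 6.44 to 15.1 CPM in FAN with counts in 1 vehicle library. Wnt7a, a Wnt ligand, measured 4.73 to 8.96 CPM in FAN with counts in 1 vehicle library.

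Some genes hardly moved. The 95% interval of the log2 change lay within -0.3 to 0.3 for 273 genes (1.54%) and within -0.5 to 0.5 for 2085 (11.8%). By the smallest bound, genes above 50 CPM that stayed level included Sar1a, a small GTPase of vesicle transport. Sar1a measured 106, 117, 114 and 109 CPM in the vehicle libraries and 103.1, 104, 123 and 115 CPM in the FAN libraries. Its log2 change was -0.0039 ± 0.09. With library size scaling the same gene measured 0.69, past the threshold, so that level is relative to the TMM scale.

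The widest ranges among the 4 FAN libraries included genes of fat. Of the 10 genes with the widest range within FAN, 5 are adipocyte or brown fat genes, Adipoq, Cfd, Cidec, Cidea and Ucp1. Adipoq measured 3.5, 1.58, 25 and 8.77 CPM in the vehicle libraries and 0, 12.1, 8.59 and 2.53 CPM in the FAN libraries. FAN 7 lay highest in its group and vehicle 3 in the other, and the log2 change did not pass (adjusted p = 0.707). The retinoid enzyme gene Aldh1a3 spread in both groups, from 1.93 to 78.5 CPM in FAN and from 3.72 to 99.1 CPM in vehicle. Stra6, the receptor of retinol-binding protein, was higher in the 2 FAN libraries of the earliest sheet positions than in the other 2. Stra6 measured 0.134, 0.245, 0.0959 and 0.126 CPM in the vehicle libraries and 62, 54.3, 13.6 and 19.9 CPM in the FAN libraries. All 4 lay far above vehicle.

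Whether the FAN change differed under time-restricted feeding was tested as an interaction, and the answer depended on the scaling. With TMM it passed for 1625 genes (9.16%), of which 1602 were also called under ad libitum feeding (14.9% of those). These were 1352 genes lower and 250 higher in FAN under ad libitum feeding. With library size scaling it passed for 6631 genes, and the 6121 also called under ad libitum feeding were 501 lower and 5620 higher, so the share of falls turned round. No direction over all genes is drawn from it. On the TMM scale, 1350 of the 1352 and 243 of the 250 had the smaller change under time-restricted feeding, and the FAN ad libitum libraries enter both the call and the interaction. Leaving out 1 ad libitum library at a time gave 1160 to 2371 genes. The scale moved the lists too. With TMM the interaction passed for 30 of 38 amino acid breakdown genes, 21 of 33 peroxisomal genes and 18 of 23 organic ion transporters. On the same scale it passed for 3 of 35 injury transcription factors, 2 of 27 matrix protease genes and 0 of 31 pattern receptor genes (3 at an unadjusted p under 0.05; edgeR alone was run). With library size scaling these counts were 18, 12 and 12 for the first 3 lists and 14, 14 and 10 for the last 3, so no difference between lists is drawn from either. Kap changed by -2.91 under ad libitum and by -0.39 under time-restricted feeding (interaction adjusted p = 0.000229), Aadat by -3.55 and -1.39 (0.000562), and Sox9 by 5.57 and 5.60 (0.988). With library size scaling the interaction (ad libitum minus time-restricted) measured -1.93 for Kap (adjusted p = 0.00123) and -1.59 for Aadat (adjusted p = 0.00236). Both thus passed on either scale, and Sox9 measured 0.56 (adjusted p = 0.574).

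**Figure D4:**
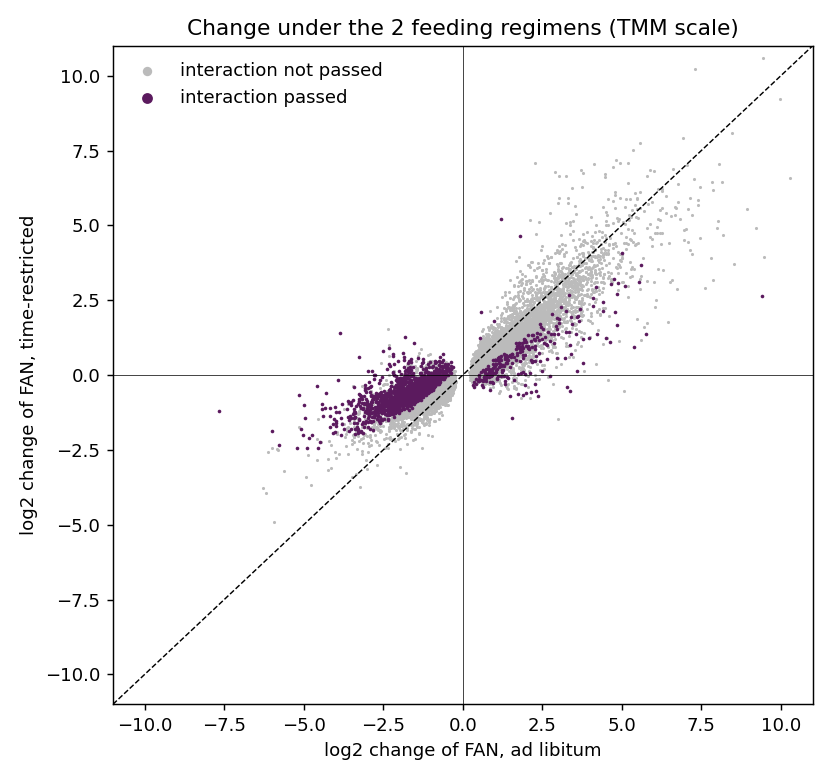
Log2 change of FAN against vehicle under ad libitum feeding (x axis) and under time-restricted feeding (y axis) for the 10770 genes called under ad libitum feeding, 1 point a gene, dark where the interaction passed (1602 genes). The dashed line marks equal changes. Of the 1352 dark points with a fall on the x axis, 1350 lie nearer 0 on the y axis on the TMM scale drawn; with library size scaling most genes that passed were rises.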

How the data were processed

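Bulk RNA-seq counts per gene were deposited by the authors as 1 table for all 16 libraries. The build mm10 and the tools STAR 2.5.3a, FastQC 0.11.5 and edgeR 3.26.7 are listed in the submitters' processing notes, with no roles; the counting tool and strand setting are not given in the sources used here, so antisense and overlapping genes and near copies may share reads. From the counts, edgeR 4.0.16 (R 4.3.3) fitted all 4 groups with TMM scaling and robust quasi-likelihood dispersion after filterByExpr (minimum count 10), leaving 17731 of 52338 genes, with Benjamini-Hochberg adjustment at 0.05 over all of them. Log2 changes are given ± SE, and means ± SD over 4 libraries. Gene positions are GRCm38 (GENCODE M21, by Ensembl ID); promoters are RefSeq GRCm38.p6. DESeq2 1.42.0 and limma 3.58.1 (voom) served as alternatives. The fit was also run on simulated data of 17731 genes built on the vehicle profile. In these, 100 well-counted genes were changed at each size, as many up as down. The fit recovered 82% of changes of 1 log2 unit and 97% of changes of 2 units, with 11 false calls. Far more genes were called in the real comparison, and the simulated data held no such shift in make-up. The shares therefore do not bear on the choice of scaling or on genes with few counts.

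The labels do not say whether libraries came from separate animals beyond their sample names, so p-values measure the spread between these samples. The gene lists, of 1175 genes with 1111 tested, were chosen with earlier results of these data known. Named genes are a short fixed list, the members of each list with the smallest p, the largest rises and falls, genes on in 1 group, the widest within FAN, the steadiest and the largest changes in share of counts. Of 285 genes named, 78 fall outside that rule and were chosen after their values were seen, mostly list members that did not pass. Some genes of the lists and of the rule are not reported here.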

Additional observations from a re-analysis of the deposited data

Results flagged for a closer look

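The 22 genes whose values are given library by library (44 groups of 4) were screened for a library far from the other 3 of its group, measured as its gap to the nearest library over the group's range; chance flags about 1 group in 20. In 4 groups the ratio passed Dixon's 95% limit, and over all genes named it did in 41 of 570 groups. The ratio was 0.945 for Aqp4 in FAN (FAN 7 high), 0.902 for Kl in vehicle (vehicle 2 low), 0.857 for Tnc in FAN (FAN 10 low) and 1 for Il6 in vehicle, where 3 libraries had no count.

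The change after FAN differed between feeding regimens for 1625 genes by the interaction test on the TMM scale. Among genes shown by library, the difference (ad libitum minus time-restricted, log2) was -2.52 for Kap, -2.37 for Slc22a7, -2.16 for Aadat and -1.15 for Hnf4a. These sizes are on the TMM scale, on which the factors of FAN libraries differed between regimens.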

How the results depend on the processing

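The count of called genes stayed within 1.5 times under every alternative run, from 9442 in the earliest sheet positions to 12893 with library size scaling. Library size scaling changed the split to 10823 higher and 2070 lower and the interaction count to 6631. It also turned the sign of list medians for proximal tubule regulators (0.31), lysosome (0.56), cytosolic ribosomal proteins (0.65), proteasome (0.16), iron and heme (0.40), hypoxia (0.50), thick ascending limb (0.34), principal cells (0.11), renal hormones (0.43) and adrenal, adipocyte and muscle markers (0.0049). Among named genes called on at least 1 of the 2 scales, those that turned with it were Atp1b1 (0.0695), Col4a5 (0.68), Dpp4 (0.66), Egfr (0.38), Emcn (0.54), Hmox1 (0.58), Il18 (0.67), Nampt (0.0365), Pax8 (0.22), Pex13 (0.0396), Sar1a (0.69), Scnn1b (0.55), Scnn1g (0.60) and Tfam (0.10). Genes called on neither scale were not screened for a turn. Of 285 genes named, 22 lost their call with it, some of these turning sign, and 19 in the earliest sheet positions. In those positions, an alternative added for lists after seeing the data, the medians of nucleotide synthesis (-0.048) and of adrenal, adipocyte and muscle markers (0.0339) turned. Among named genes called in at least 1 of the 2 fits, Rgs5 (-0.59) turned there. Leaving out 1 library gave 10176 to 10751 called genes and 1160 to 2371 interactions, the highest without FAN 10. It ended 1 or more calls for Aqp4, Scnn1a, Gatm, Csf1r, Sele, Egfr and Cyp27b1 and gave 1 for Abcc4, Acta2, Aqp2, Bckdha, Calb1, Cdh1, Cdkn2b, Col4a4, Cyp24a1, Mme, Plat, Slc12a3 and Slc7a7. The mitochondrial difference ran from -11.5 to -8.92 percentage points, and that in genes detected from 1579 to 2421 (1871 at equal depth). The cause of these shifts was not tested. No paired analysis was possible because the FAN columns do not carry the replicate numbers of the sample titles.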
